A study of Mus musculus with 8 samples.

Results

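Organic ion and drug transporters were examined in single-nucleus RNA-seq data of mouse kidney. They were chosen by name: genes of 6 families (Slc22a, Slco, Slc47a, Abcb, Abcc and Abcg), antisense transcripts left out, with at least 100 unique molecular identifiers (UMIs, each one a captured transcript) over all nuclei that passed quality control. Of 32285 genes in the files, 67 carried such a symbol and 56 reached the count. Just inside the limit were Abcg4 with 104, Abcg8 with 108 and Slco1c1 with 173 UMIs, and just outside it Slco5a1 with 90, Abcc12 with 65 and Abcb11 with 63.

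The kidneys came from 8 male mice on the C57BL/6J background, 2 in each of 4 groups. Ctrl mice were Bmal1lox/lox, that is, their Bmal1 (Arntl) alleles were flanked by lox sites. Their littermates, the cKOt mice, were Bmal1lox/lox/Pax8-rtTA/LC-1: the Pax8 promoter drives a doxycycline-dependent activator along the renal tubule, which switches on Cre from LC-1 and inactivates Bmal1 there, while vessels, stroma and immune cells are not targeted. Both genotypes drank doxycycline at 2 mg/ml with sucrose at 20 mg/ml for 2 weeks from the age of 8 weeks, and were killed at 14 weeks at Zeitgeber time (ZT) 4 in the light phase or ZT16 in the dark phase of a day with 12 h of light and 12 h of darkness. Ctrl mice carried neither transgene, so an effect of the transgenes cannot be told apart from that of the deletion. Nuclei were isolated from frozen cross-sections holding cortex and both parts of the medulla, sorted by their DAPI signal and sequenced from the 3′ end. The comparisons ask how far transporter transcripts differ between times of day, and what the loss of the tubular clock changes.

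Most of these genes encode the proteins by which the kidney secretes drugs, toxins and waste products. In the proximal tubule, basolateral carriers of the SLC22 family take organic anions and cations up from blood, and apical carriers and ATP-driven pumps (MATE antiporters, MRP2, BCRP) release them into the lumen. Other members carry carnitine, urate, prostaglandins, conjugated steroids or bile acids, sit in mitochondria or lysosomes, or serve as subunits of potassium channels.

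Altogether 81391 of 82784 barcodes were kept, with 36548873 to 54500820 UMIs per library. Any 2 libraries shared 18 to 42 barcodes, and Scrublet marked 5.37% of nuclei as doublets. They were kept, but clusters made mostly of doublets were given no class, and 32.6% of the nuclei without a class were doublets. Clusters were built without the transporters and named from marker genes: 77176 nuclei (94.8%) fell into 21 classes, among them those called proximal convoluted tubule (PCT, 22229 nuclei) and proximal straight tubule (PST, 3859 nuclei), with lists of 8 and 7 markers. PCT nuclei were 23.0 to 32.1% of a library and gave 33.0 to 41.5% of its UMIs. By a rule set after the clusters were seen, a proximal cluster was PST only with at least 2-fold higher Cyp7b1 than other nuclei, and PCT otherwise. Clusters of the PCT class with at least 2-fold higher Atp11a are called Atp11a-high below, and the others with at least 2-fold higher Slc5a2, the glucose cotransporter of the early tubule, Slc5a2-high. The markers of the 5 Atp11a-high clusters (8220 nuclei) go against the name PCT: their mean z was 1.01 to 1.21 for the PST list and 0.377 to 0.839 for the PCT list, with 3 to 5 PST and 1 or 2 PCT markers raised 2-fold, but Cyp7b1 was at most 0.153-fold that of other nuclei. They are therefore described apart, and results that change when they are counted as PST are given. The class called thick ascending limb (TAL, 10131 nuclei) holds a cluster of 5196 nuclei that scored higher on the list of the thin ascending limb, with which it shares markers. In 3 libraries a large share of the proximal nuclei formed an Atp11a-high cluster of their own: 1121 nuclei (34.9%) of the cKOt ZT4 mouse 2, where the other libraries gave 0 to 13, 1109 (35.4%) of the Ctrl ZT16 mouse 1, against 0 to 55, and 1163 (40.0%) of the Ctrl ZT16 mouse 2, against 0 to 155. For most calls the results turn on, the range with each of the 8 libraries left out is therefore given. It is not given for Slco3a1, Slc47a2 and Slc10a2 in Slc5a2-high nuclei, nor for calls with Atp11a-high nuclei counted as PST. A set with 1 library left out has 1 mouse in a group. Its adjusted p rests on the spread of the other groups, and shows only which calls were lost. Atp11a-high and PST nuclei of Ctrl and cKOt mice lay mostly in different clusters, and so did Slc5a2-high nuclei of Ctrl mice at the 2 times. Some Slc5a2-high clusters held both genotypes. The cKOt ZT4 mouse 2 had 899 and 394 nuclei in a pair of clusters where the Ctrl ZT16 mouse 1 had 490 and 738. Another cluster held 104 to 390 nuclei of a Ctrl and 91 to 1041 of a cKOt library. Of the PST clusters, one held 413 to 542 nuclei of each cKOt and 5 to 58 of each Ctrl library, and another 0 to 30 and 350 to 520. In PCT, Atp11a-high nuclei were 39.0 to 48.0% of PCT nuclei in Ctrl and 26.9 to 43.2% in cKOt libraries. A cluster with neither mark held 4 to 147 nuclei of a Ctrl and 23 to 680 of a cKOt library. The 43.2% and the 23 nuclei were those of the cKOt ZT4 mouse 2, and the other cKOt libraries had 26.9 to 28.9% and 575 to 680 nuclei. One Slc5a2-high cluster held 1282 and 1183 nuclei of the Ctrl mice at ZT4 and 39 and 31 at ZT16, and another 45 and 53 against 738 and 284.

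Many secretory carriers had their highest level in the proximal tubule. Of the 56 genes, 26 had their highest level in PCT (11) or PST (15). With Atp11a-high nuclei counted as PST these were 25 (8 and 17), and 4 genes moved from PCT to PST, among them Slc22a6, Slc47a1 and Slco1a1. Levels are protein-coding UMIs scaled to a fixed total per library and class, the usual CPM, as a mean over 8 libraries. Adipocytes were absent from the Ctrl ZT16 mouse 2 and the cKOt ZT16 mouse 2, so their means leave these libraries out. This description carries no test. The share among all genes was not counted, so the transporters are not compared with other genes. The share highest in PCT or PST was 22 of 34 among SLC genes and 4 of 22 among ABC genes. All 12 organic anion transporters of the SLC22 family were highest there. In 18 genes at least 80% of all UMIs lay in PCT and PST nuclei, and in 8 genes under 10% did. Of the UMIs of all genes, PCT nuclei gave 38.2% and PST nuclei 8.34%. The highest class exceeded the second in all 8 libraries for 25 genes. For 6 genes the highest class was adipocytes or B cells, which had no more than 38 nuclei in any library, and those ranks rest on few UMIs. One was Slc22a23, with 613 CPM in adipocytes, 580 in the thin descending limb, 464 in PCT and 713 in Slc5a2-high nuclei. Adipocytes exceeded the thin descending limb in 3 libraries.

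**Figure D1:**
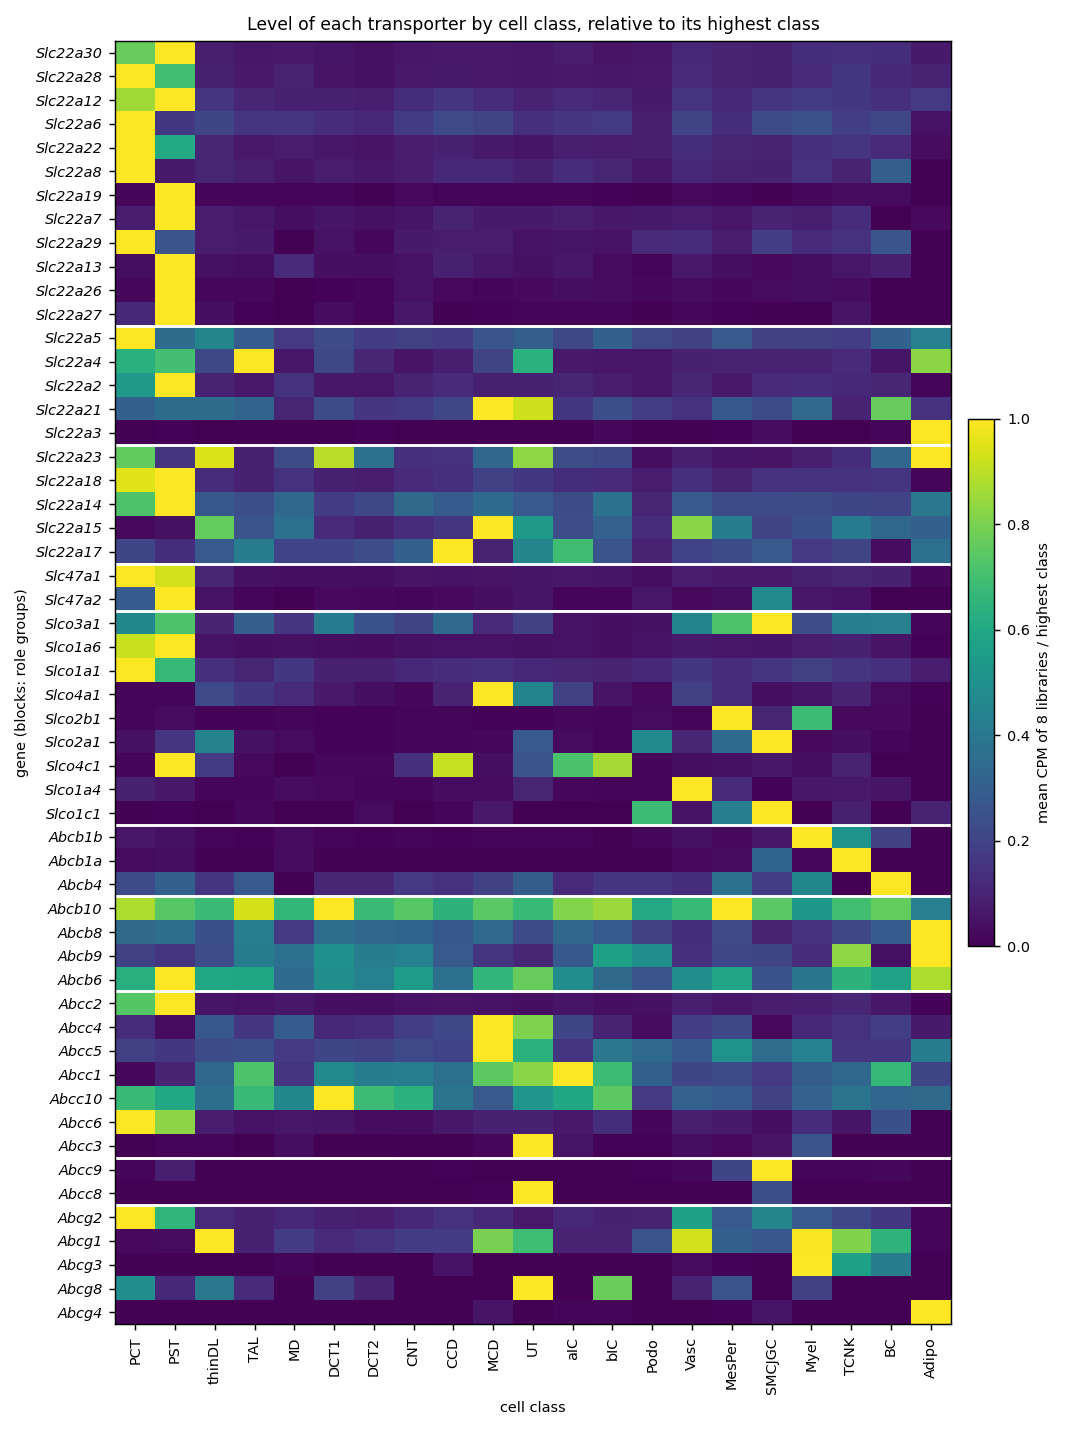
Heat map of 54 transporters (rows, in blocks by role) over 21 cell classes (columns). Colour is the mean CPM of 8 libraries divided by that gene's highest class, on a linear scale from 0 to 1. For adipocytes the mean leaves out the libraries without them. All 12 organic anion transporters of the top block peak in PCT or PST, whereas most ABC genes peak in other classes (of all 22, 4 peak in PCT or PST).

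The organic anion transporters fell into groups along the proximal tubule. Slc22a6 and Slc22a8 encode OAT1 and OAT3, the basolateral carriers that load proximal cells with drugs such as diuretics and antibiotics. Slc22a6 reached 286 CPM in Atp11a-high nuclei (range 211 to 409 over 8 libraries), against 63.6 in Slc5a2-high (37.7 to 110) and 30.4 in PST nuclei (20.3 to 39.6). Slc22a8 had 170 CPM in Slc5a2-high and 123 in Atp11a-high nuclei, with overlapping ranges, but 11.2 in PST nuclei (6.27 to 20.0). Both carriers were low in PST nuclei, and only for Slc22a6 did the ranges of Slc5a2-high and Atp11a-high nuclei stay apart. Other members were highest in PST nuclei. Slc22a19, which encodes OAT5, had 503 CPM in PST nuclei (143 to 832) and 5.45 and 13.5 in Slc5a2-high and Atp11a-high nuclei, so 92.4-fold and 37.2-fold less. Slc22a7, which encodes OAT2, had 211 CPM in PST nuclei (106 to 290) and 8.00 and 27.6 in Slc5a2-high and Atp11a-high nuclei. Slc22a13 had 65.04 CPM in PST nuclei against 1.65 and 3.26, and Slc22a26 had 29.4 against 0.409 and 0.864. The opposite pattern was seen for Slc22a29, with 50.7 CPM in Slc5a2-high nuclei (22.2 to 82.7), 3.14 in Atp11a-high and 6.29 in PST nuclei. The urate transporter gene Slc22a12 had 157 CPM in Slc5a2-high, 369 in Atp11a-high and 317 in PST nuclei. Slc22a30 and Slc22a28, a pair of rodent-specific carriers, were high throughout: Slc22a30 had 611, 1321 and 1283 CPM and Slc22a28 1125, 950 and 724 CPM in the same order. Genes Slc22a26 to Slc22a30 are close copies of each other, and reads that match more than one of them could be split or lost in counting.

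Of the 6 organic cation and carnitine carrier genes of the SLC22 family 3 were highest in PCT or PST, and both MATE genes. Slc22a2, which encodes OCT2, the basolateral uptake carrier for metformin and cisplatin, had 67.1 CPM in Slc5a2-high (39.3 to 102), 203 in Atp11a-high (165 to 249) and 257 in PST nuclei (186 to 362). Slc47a1, which encodes MATE1, the apical antiporter that completes cation secretion, had 1117 CPM in Slc5a2-high, 1500 in Atp11a-high and 1237 in PST nuclei, and its ranges overlapped. At least 1 UMI of it was found in 95.6% of PCT nuclei. Slc47a2, the second MATE gene, was higher in PST nuclei, with 28.2 CPM (12.9 to 51.6), than in Slc5a2-high (5.53) or Atp11a-high nuclei (10.5). The ergothioneine and carnitine carrier gene Slc22a4 had its highest mean in the thick ascending limb (TAL), 231 CPM with a range of 130 to 384, against 147 in PCT. The OCT3 gene Slc22a3 had 0.248 CPM in PCT and 1.48 in PST nuclei. Its highest mean was in adipocytes, a class of 62 nuclei. Slc22a5 encodes OCTN2, the high-affinity carnitine carrier that returns filtered carnitine to the body. It had 303 CPM in PCT, 138 in the thin descending limb and 107 in PST nuclei. Low levels of the abundant carriers in other classes (Slc47a1 at 61.3 CPM in TAL nuclei, for example) may hold free RNA, whose part was not tested.

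OATP carriers, which move steroid conjugates, thyroid hormones and prostaglandins, were split between tubule and stroma. Slco1a1 was 19.3-fold higher in Atp11a-high (551 CPM, 340 to 845) than in Slc5a2-high nuclei (28.5 CPM, 19.4 to 46.4), and had 192 CPM in PST nuclei. Slco1a6 followed the same order, with 521 CPM in Slc5a2-high, 1479 in Atp11a-high and 1115 in PST nuclei. Slco4c1, a carrier of digoxin and uremic toxins, was near 0 in Slc5a2-high and Atp11a-high nuclei, with 0.968 and 1.16 CPM against 66.1 in PST nuclei (20.7 to 143), and had 60.4 CPM in the cortical collecting duct. Outside the proximal tubule, Slco2b1 peaked in mesangial and pericyte-like nuclei (478 CPM, 393 to 607) and in myeloid nuclei (328 CPM). The prostaglandin carrier gene Slco2a1 peaked in the class of smooth muscle and juxtaglomerular cells (458 CPM, 333 to 558), and Slco4a1 in the medullary collecting duct (454 CPM, 335 to 570). Slco1a4 was an endothelial gene, with 59.1 CPM in the vascular class, 55.0% of its CPM summed over all classes, and 7.33 CPM in the class that followed. Slco3a1 was broad: 1266 CPM in smooth muscle and juxtaglomerular nuclei, 912 in PST, 905 in Atp11a-high and 226 in Slc5a2-high nuclei.

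Among the ABC pumps, Abcc2 and Abcg2, which encode the apical pumps MRP2 and BCRP, were proximal. Abcc2 had 869 CPM in Slc5a2-high, 1445 in Atp11a-high and 1574 in PST nuclei. Abcg2 ran the other way, with 544, 477 and 334 CPM and the PST range (281 to 383) lay below those of the Atp11a-high (385 to 544) and Slc5a2-high nuclei (414 to 639). Abcc4, whose product MRP4 exports cyclic nucleotides and prostaglandins, had 1132 CPM in the medullary collecting duct (665 to 1795), and within PCT it had 273 CPM in Slc5a2-high (197 to 396) against 36.8 in Atp11a-high nuclei (14.6 to 52.8). Abcc3 was a urothelial gene (266 CPM, 64.2% of its summed CPM), as was Abcc8 (59.0 CPM), the SUR1 subunit of ATP-sensitive potassium channels. Abcc9, the SUR2 subunit of the vascular channel, had 572 CPM in smooth muscle and juxtaglomerular nuclei (490 to 684), 119 in mesangial and pericyte-like nuclei and 49.0 in PST nuclei. The P-glycoprotein genes were highest in immune nuclei, Abcb1b in myeloid (108 CPM) and Abcb1a in T and NK nuclei (114 CPM, in a class with 78992 to 166875 UMIs in a library). These paralogs share much sequence, and reads could be split between them. Abcb10, an exporter of the mitochondrial inner membrane needed for heme synthesis, varied little, with 37.5 CPM in the early distal convoluted tubule, its highest class, and 33.0 CPM in PCT nuclei.

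**Figure D2:**
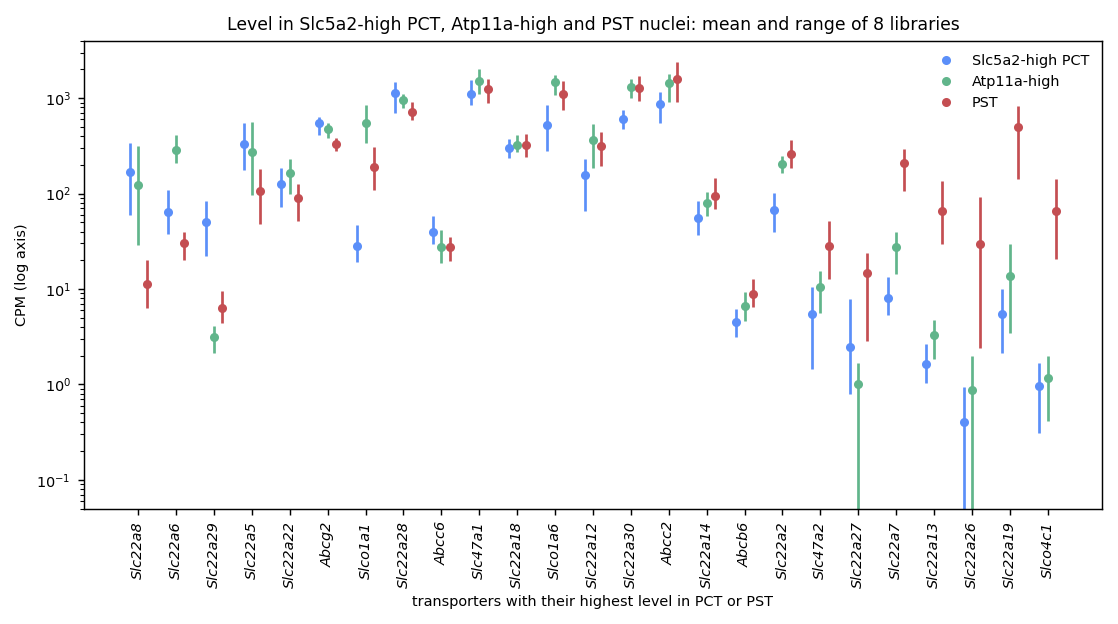
Level of 25 of the 26 transporters that peak in PCT or PST, in Slc5a2-high PCT (blue), Atp11a-high (green) and PST nuclei (red), as CPM on a log axis; points are means and lines the range of 8 libraries, and lines that reach the lower edge include 0. Genes are ordered by PST level relative to PCT: Slc22a8, Slc22a6 and Slc22a29 at the left have little PST signal, whereas Slc22a7, Slc22a13, Slc22a26, Slc22a19 and Slco4c1 at the right have most of their proximal signal there.

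Many of these genes stand side by side in the genome. In RefSeq gene order, 23 of the 56 formed 7 runs of neighbours without another gene of the table between them, the longest being 8 SLC22 genes on chromosome 19 (Slc22a19, Slc22a26, Slc22a27, Slc22a28, Slc22a29, Slc22a30, Slc22a8, Slc22a6). Slc22a5, Slc22a21 and Slc22a4 formed a run on chromosome 11, and Slc47a2 and Slc47a1 another one. The run on chromosome 19 held genes of both segments: Slc22a19, Slc22a26 and Slc22a27, which are adjacent, had their highest level in PST nuclei, as had Slc22a30, and Slc22a28, Slc22a29 and the adjacent Slc22a8 and Slc22a6 in PCT nuclei, Slc22a6 mainly in the Atp11a-high ones.

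Because clock proteins bind known DNA elements, the 250 bases before the annotated start were searched on both strands in RefSeq windows (GRCm38.p6), found for 43 of the 56 genes (52 windows). The E-box CACGTG, bound by the BMAL1-CLOCK dimer, was in 2 windows (3.85%, against 6.02% of all 32851 windows), those of Abcc4 and Slc22a4, 205 and 228 bases before the start. The related CACGTT was in 0 windows (3.85% of all), the D-box TTATGNAA, bound by Dbp and Tef, in 1 window, that of Abcg2 (3.07% of all), and the nuclear receptor half-site AGGTCA in 10 (14.02% of all). The windows of the neighbours Slc22a5 and Slc22a4 and of Slc47a2 are shown because the comparisons below turn on these genes. Each is on the minus strand and written 5′ to 3′ along the gene; Slc22a5 at chr11:53891704-53891953, Slc22a4 at chr11:54028105-54028354 and Slc47a2 at chr11:61342861-61343110. Capitals mark the E-box, and the other windows held none of the 4 motifs.
Slc22a5: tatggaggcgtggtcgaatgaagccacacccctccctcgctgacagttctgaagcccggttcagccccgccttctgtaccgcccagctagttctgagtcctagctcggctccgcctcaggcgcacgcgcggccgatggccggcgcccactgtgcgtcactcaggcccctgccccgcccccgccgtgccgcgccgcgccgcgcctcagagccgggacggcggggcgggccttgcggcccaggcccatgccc
Slc22a4: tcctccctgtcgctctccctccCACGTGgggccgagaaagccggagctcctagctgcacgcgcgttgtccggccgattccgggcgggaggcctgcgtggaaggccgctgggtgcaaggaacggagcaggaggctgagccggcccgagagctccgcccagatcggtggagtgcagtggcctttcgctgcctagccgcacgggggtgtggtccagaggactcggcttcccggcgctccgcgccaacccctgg
Slc47a2: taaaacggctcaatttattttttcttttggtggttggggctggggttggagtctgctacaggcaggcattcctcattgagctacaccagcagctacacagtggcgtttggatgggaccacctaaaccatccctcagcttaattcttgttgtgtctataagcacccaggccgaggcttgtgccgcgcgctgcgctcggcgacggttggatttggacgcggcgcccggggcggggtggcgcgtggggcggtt

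The targeted gene was read first. Arntl UMIs did not fall in cKOt mice: in all nuclei together the level was 38.4 and 33.1 CPM in the Ctrl mice at ZT4, 154 and 159 in the Ctrl mice at ZT16, 296 and 201 in the cKOt mice at ZT4, and 296 and 267 in the cKOt mice at ZT16. Values of 8 libraries are given in this order throughout, scaled by the trimmed mean of M-values (TMM). UMIs of the whole gene cannot be limited to the deleted part, so they check nothing about the recombination. Other clock outputs differed between the groups: Dbp, a D-box activator, had 32.2 and 24.7, then 2.90 and 2.14, then 3.62 and 6.77, then 2.04 and 2.17 CPM, highest in both Ctrl mice at ZT4. It was lower at ZT16 in Ctrl mice by a log2 difference of -3.49 ± 0.31 (SE, adjusted p = 0.00406). In cKOt mice at ZT4 it was lower by -2.45 ± 0.30 (adjusted p = 0.0117), or by -2.97 without the cKOt ZT4 mouse 2. Each of these calls was lost in 1 of the 8 sets with a library left out (adjusted p up to 0.052 and 0.0631). Tef, a related activator, was lower in PCT nuclei of cKOt mice at ZT4, at -1.13 ± 0.20 (adjusted p = 0.0447). The call was lost in 7 of the 8 sets with a library left out (-0.92 to -1.41, with -1.41 without the cKOt ZT4 mouse 2). All p-values are from edgeR's quasi-likelihood test, adjusted over all genes of the contrast, with 2 mice in each group.

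Summed over all nuclei, no transporter passed the test in any of the 4 comparisons. Ctrl mice at ZT16 against ZT4 gave 0 of 56 (0.142% of all genes tested were called), cKOt mice at ZT16 against ZT4 0 (0% of all genes), cKOt against Ctrl at ZT4 0 (0.446%) and at ZT16 0 (0.174%). At an unadjusted p under 0.05 there were 9, 10, 11 and 9 of the 56, or 16.1, 17.9, 19.6 and 16.1%, where all genes gave 9.96, 8.33, 8.88 and 6.11%. DESeq2 called 3, 4, 2 and 3, and 1.44, 1.03, 2.17 and 1.06% of all genes. The median log2 difference of the 56 genes lay between -0.07 and 0.01 in the 4 comparisons, and that of all genes between -0.01 and 0.00. In whole-kidney sums, fewer cells of a type and less RNA per cell cannot be told apart. The comparisons share groups (the Ctrl mice at ZT4 enter both the time and the genotype comparison), so their values are set side by side only.

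Slc22a5, the carnitine carrier gene, was ordered by both time and genotype. In all nuclei it had 232 and 271, then 158 and 150, then 165 and 157, then 103 and 93.9 CPM: the Ctrl mice at ZT4 were highest, the cKOt mice at ZT16 lowest, and those 2 groups overlapped neither each other nor the others. Each of the 4 comparisons gave a difference of -0.64 to -0.71 log2 and none passed the limit (adjusted p = 0.0936, 0.145, 0.078 and 0.123 for time in Ctrl, time in cKOt, genotype at ZT4 and genotype at ZT16). Averaged over both times, a comparison added after seeing the data, the genotype difference was -0.64 ± 0.09 (adjusted p = 0.0116), and averaged over both genotypes, the time difference was -0.71 ± 0.09 (adjusted p = 0.0169), where 0.949% and 0.545% of all genes were called. The interaction of genotype and time was 0.00 ± 0.18. With 1 library left out, the averaged genotype difference was -0.58 to -0.70 and its call was lost in 2 of 8 cases, without the Ctrl ZT4 mouse 2 (adjusted p = 0.0533) and without the cKOt ZT16 mouse 2 (adjusted p = 0.0694). The averaged time difference was -0.65 to -0.76 and its call was lost in 6 of 8 cases (adjusted p = 0.0319 to 0.0663), and it was kept only without either cKOt mouse at ZT4.

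In PCT nuclei the same order was seen on a larger scale, with 429 and 573, then 295 and 297, then 267 and 252, then 158 and 149 CPM. Both Ctrl mice exceeded both cKOt mice at each time. The difference at ZT4 was -0.95 ± 0.17 (adjusted p = 0.0447), one of 2 transporters called in that comparison (2 of 52 tested, against 0.782% of all genes). At ZT16 it was also -0.95 ± 0.17 (adjusted p = 0.0765). No transporter was called in the single comparisons of PCT nuclei with a replicate block over both times in the fit. Values with a block within each time are not given. With Atp11a-high nuclei counted as PST, the difference in the other PCT nuclei was -0.78 at ZT4 (adjusted p = 0.0652). The call at ZT4 was lost when any 1 of the 8 libraries was left out (-0.72 to -1.13, adjusted p = 0.056 to 0.256; without the cKOt ZT4 mouse 2 it was -0.92, adjusted p = 0.123). Averaged over both times the genotype difference was -0.95 ± 0.12 (adjusted p = 0.00552, where 1.62% of all genes were called), and it was called in 7 of the 8 sets with a library left out (adjusted p = 0.0063 to 0.0508), the exception being the set without the cKOt ZT16 mouse 2. The time difference averaged over both genotypes was -0.76 ± 0.12 (adjusted p = 0.0295, where 0.805% of all genes were called), and it was lost in 6 of the 8 sets (adjusted p up to 0.169).

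The values are given next along the tubule. Atp11a-high nuclei had 387 and 582, then 305 and 314, then 160 and 213, then 95.5 and 103 CPM of Slc22a5, and differed between genotypes by -1.38 ± 0.23 at ZT4 (adjusted p = 0.0401, where 0.54% of all genes were called) and -1.64 ± 0.23 at ZT16 (adjusted p = 0.036, 0.278%). Without the cKOt ZT4 mouse 2 the difference at ZT4 was -1.61. With 1 library left out it was -1.05 to -1.64, and its call was lost in 6 of 8 cases. At ZT16 it was -1.59 to -1.70, and the call was lost in 4 of 8 cases, when any mouse of the compared groups was left out (adjusted p = 0.126 and 0.194 without the Ctrl mouse 1 or 2, up to 0.359 without a cKOt mouse). Slc5a2-high nuclei had 478 and 561, then 285 and 262, then 375 and 286, then 226 and 184 CPM, with -0.65 ± 0.19 (adjusted p = 0.198) and -0.42 ± 0.19 (adjusted p = 0.812). The difference between these nuclei was not tested. In PST nuclei the level was 119 and 185, then 139 and 117, then 85.3 and 93.0, then 65.7 and 50.5 CPM, with every cKOt mouse below every Ctrl mouse, and the averaged genotype difference was -0.96 ± 0.17 (adjusted p = 0.0183). It was lost in 3 of 8 cases, without the Ctrl ZT4 mouse 2 (-0.77, adjusted p = 0.0794), the Ctrl ZT16 mouse 1 (-0.89, adjusted p = 0.0931) or the cKOt ZT16 mouse 2 (-0.87, adjusted p = 0.0853). PST and Atp11a-high nuclei together gave -1.47 (adjusted p = 0.00215), with calls at ZT4 (-1.34, adjusted p = 0.0351) and ZT16 (-1.60, adjusted p = 0.0204). In TAL nuclei the time comparisons passed and the genotype comparisons did not. The level was 116 and 107, then 70.0 and 71.7, then 95.4 and 122, then 61.7 and 61.5 CPM, so that all ZT16 mice lay below all ZT4 mice. The time difference was -0.65 ± 0.14 in Ctrl (adjusted p = 0.0402, where 1.22% of all genes were called) and -0.82 ± 0.15 in cKOt mice (adjusted p = 0.0199, 0.564%), while the genotype differences were -0.03 ± 0.14 at ZT4 (adjusted p = 0.987) and -0.20 ± 0.15 at ZT16 (adjusted p = 1). With 1 library left out the call in Ctrl mice was lost in 6 of 8 cases (-0.59 to -0.71, adjusted p up to 0.282), and was kept only without either cKOt mouse at ZT4. The call in cKOt mice was lost in 3 of 8, without the cKOt ZT4 mouse 2 (-0.62, adjusted p = 0.219) or either cKOt mouse at ZT16 (adjusted p up to 0.223). In the 16 classes outside PCT and PST in which Slc22a5 could be tested, TAL among them, the fitted difference was below 0 at ZT16 in 15 for Ctrl mice and in 16 for cKOt mice, with an unadjusted p under 0.05 in 4 and 3 of them and a call in TAL alone. In these classes 4.90 to 13.2% of all genes had such a p for time in Ctrl and 4.32 to 10.35% in cKOt mice. The genotype difference of Slc22a5 was below 0 in cKOt mice in 11 of the 16 classes at ZT4 and in 14 at ZT16, with an unadjusted p under 0.05 in 0 and 1 of them (3.34 to 8.72% and 3.36 to 7.92% of all genes) and 0 calls. No annotated gene overlaps Slc22a5.

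**Figure D3:**
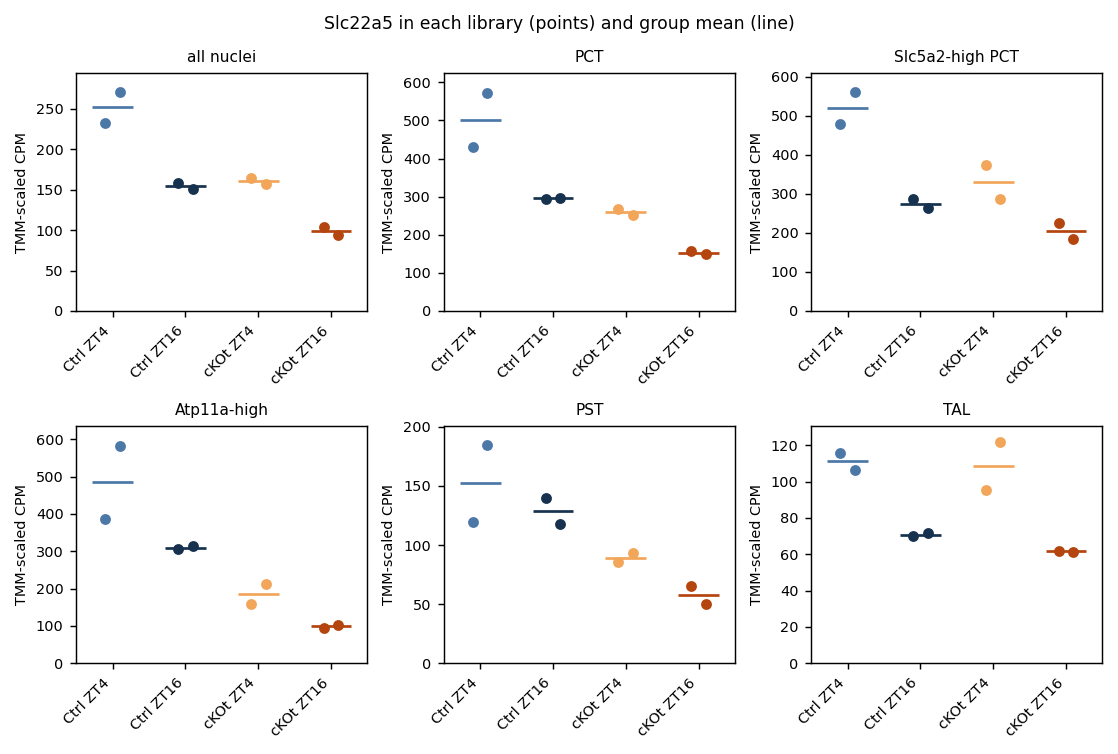
Slc22a5 in all nuclei, PCT, Slc5a2-high PCT, Atp11a-high, PST and TAL nuclei, as TMM-scaled CPM on linear axes from 0; points are the 2 mice of a group and lines their mean. In PCT and PST nuclei cKOt mice lie below Ctrl mice at the same time, and in TAL nuclei the ZT16 mice, at 61.5 to 71.7 CPM, lie below the ZT4 mice, at 95.4 to 122 CPM.

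The genotype difference of the neighbour Slc22a4 in the proximal tubule turned on a single library. In PCT nuclei it had 184 and 274, then 142 and 109, then 53.5 and 215, then 83.6 and 116 CPM, and the cKOt mice at ZT4 were the lowest and the second highest of all 8. The genotype difference at ZT4 was -0.77 ± 0.52 (adjusted p = 0.764). Without the cKOt ZT4 mouse 2, one of the libraries with a cluster of its own, it was -2.11 in PCT, -1.61 in PST and -1.41 in all nuclei. Each value rests on 1 mouse of that group, whose spread cannot be measured, so no p-value is given. The mouse left out had 215 CPM in PCT nuclei, between the Ctrl mice at ZT4 with 184 and 274 CPM. Differences without the cKOt ZT4 mouse 1 are not given. In TAL nuclei the cKOt mice at ZT4 were also apart, with 350 and 386, then 170 and 189, then 129 and 304, then 155 and 170 CPM. There the genotype difference at ZT4 was -0.76 ± 0.25 (adjusted p = 0.426), and both Ctrl mice at ZT16 lay below both at ZT4 (-1.04 ± 0.25, adjusted p = 0.0675). Over the classes outside PCT and PST in which Slc22a4 could be tested, 0 calls were made in any comparison. The fitted genotype difference was below 0 in 10 of 11 classes at ZT4, with an unadjusted p under 0.05 in 5, all lower (3.34 to 8.72% of all genes), and in 9 of 13 at ZT16, with such a p in 2. The time difference was below 0 in 11 of 12 classes in Ctrl mice, with such a p for 4 lower and 1 higher (4.90 to 13.2% of all genes), and in 9 of 12 in cKOt mice, with such a p in 1, which was higher. All these classes come from the same 8 mice and are not independent. Slc22a21, the third gene of the run, fell at ZT16 in TAL nuclei of Ctrl mice, from 40.3 and 33.4 to 17.0 and 19.6 CPM (-1.01 ± 0.22, adjusted p = 0.0386), a call lost when any of these 4 mice was left out (adjusted p up to 0.281). It had 25.6 and 36.3, then 13.6 and 17.3 CPM in cKOt mice, where the difference was -1.02 ± 0.23 (adjusted p = 0.0668). Slc22a21 shares a stretch on its own strand with Gm12219, and Slc22a4 and Slc22a21 both overlap Gm30927 on the opposite strand.

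The other transporter called in PCT nuclei at ZT4 was Slco2b1, a carrier of steroid sulfates, at a low level: 11.5 and 12.3, then 8.65 and 10.1, then 5.40 and 4.08, then 6.83 and 6.75 CPM. All cKOt mice were below all Ctrl mice, by -1.33 ± 0.22 at ZT4 (adjusted p = 0.0371) and -0.46 ± 0.21 at ZT16 (adjusted p = 0.717). Averaged over both times it was -0.90 (adjusted p = 0.026), a call lost with Atp11a-high nuclei counted as PST (-0.76, adjusted p = 0.119) and in 6 of the 8 sets with a library left out (adjusted p up to 0.123). Leaving out 1 library gave -1.15 to -1.55 at ZT4 (adjusted p = 0.0482 to 0.223), and the call was lost in 7 of 8 cases, with -1.15 (adjusted p = 0.102) without the cKOt ZT4 mouse 2. Markers of mesangial cells and pericytes, the class with the highest Slco2b1 level, moved with it. Their 8 genes, all above 0, summed to 75.7 to 87.8 CPM in PCT nuclei of Ctrl and 60.2 to 74.5 CPM in those of cKOt mice, and the 11 myeloid markers to 25.4 to 34.4 and 16.7 to 22.4 CPM. Their part in the Slco2b1 result was not tested. Within mesangial and pericyte-like nuclei themselves Slco2b1 had 473 and 497, then 504 and 439, then 438 and 386, then 602 and 492 CPM, and genotypes differed by -0.24 ± 0.15 at ZT4 (adjusted p = 0.748).

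For the remaining comparisons of PCT nuclei edgeR called 0 transporters: Ctrl at ZT16 against ZT4 (0.458% of all genes called), cKOt at ZT16 against ZT4 (0%) and genotype at ZT16 (0.294%). Unadjusted p under 0.05 was reached by 10 of 52, 11 of 51 and 5 of 52, or by 11.2, 8.05 and 7.5% of all genes, and DESeq2 called 2, 1 and 1, and 1.78, 0.821 and 1.38% of all genes. With Atp11a-high nuclei counted as PST, Slc22a5 was called in the other PCT nuclei of Ctrl mice (-0.91 at ZT16, adjusted p = 0.0455) and Slc22a12 in the averaged time comparison (1.06, adjusted p = 0.0405). Slc47a1, Slc22a6 and Abcg2, carriers of cation, anion and drug secretion, were not called. Slc47a1 had 1093 and 1216, then 1721 and 1415, then 1024.04 and 1372, then 1405 and 1363 CPM, and Slc22a6 172 and 206, then 257 and 155, then 148 and 194, then 210 and 152 CPM. Both Ctrl mice at ZT16 had more Slc47a1 than any other mouse (0.44 ± 0.20 against ZT4, adjusted p = 0.454), and for Slc22a6 the groups overlapped. Abcg2 had 389 and 516, then 515 and 428, then 484 and 586, then 566 and 610 CPM. Its genotype difference was 0.24 ± 0.19 at ZT4 and 0.32 ± 0.19 at ZT16.

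**Figure D4:**
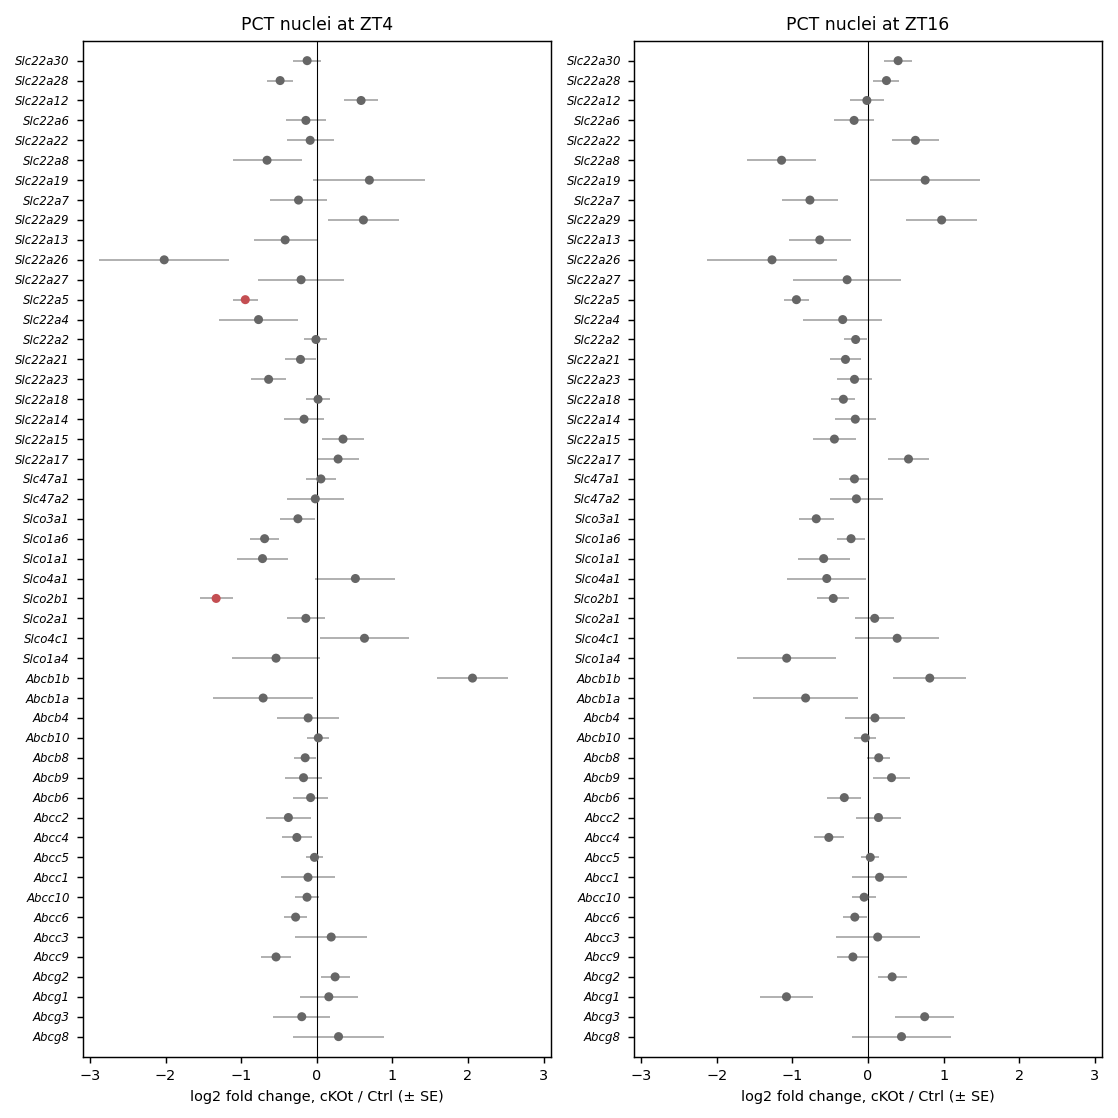
Log2 difference between cKOt and Ctrl in PCT nuclei for the transporters tested, those not reported here left out, at ZT4 (left) and ZT16 (right); bars are standard errors of the edgeR fit with 2 mice per group, and red marks an adjusted p under 0.05. Slc22a5 and Slco2b1 are red at ZT4, none is at ZT16, and Slc22a5 sits at -0.95 in both panels.

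Within Slc5a2-high PCT nuclei, an alternative added after seeing the data, Slco1a6 and Slco2b1 of the OATP family were called lower in cKOt mice at ZT4, Slco1a6 and Slco3a1 in the average of both times, and none at ZT16. Slco1a6 had 693 and 870, then 723 and 547, then 281 and 364, then 343 and 336 CPM, and the lowest Ctrl mouse exceeded the highest cKOt mouse. The difference at ZT4 was -1.28 ± 0.20 (adjusted p = 0.0196), or -1.48 without the cKOt ZT4 mouse 2. Of 47 transporters tested 3 were called in that comparison, and 0.894% of all genes. The difference at ZT16 was -0.91 ± 0.20 (adjusted p = 0.192). The call of Slco1a6 at ZT4 was lost in 2 of the 8 sets with a library left out. In Atp11a-high nuclei, where its level is higher, the difference was -0.40 ± 0.20 at ZT4 and 0.12 ± 0.20 at ZT16, with adjusted p = 0.637 and 0.967. Slco3a1 had 223 and 257, then 334 and 397, then 113 and 157, then 196 and 133 CPM, and its averaged genotype difference was -0.99 ± 0.16 (adjusted p = 0.0136, where 1.39% of all genes were called). Again all cKOt mice were below all Ctrl mice. The cluster with neither mark, left out here, held 4 to 147 nuclei of a Ctrl and 23 to 680 of a cKOt library. Its part in these differences was not tested. Neither Slco1a6 nor Slco3a1 was called in PCT nuclei as a whole. Slco2b1 was the second one called at ZT4, at -1.53 ± 0.27 (adjusted p = 0.0272), and lost in 4 of 8 cases, when any mouse at ZT4 was left out (adjusted p = 0.0831 without the cKOt ZT4 mouse 2, up to 0.189).

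The third was Abcb1b, a P-glycoprotein gene, and it moved the other way. It had 4.22 and 3.82, then 3.98 and 3.16, then 11.4 and 26.0, then 4.08 and 7.51 CPM, so it was high in both cKOt mice at ZT4 and highest in mouse 2. The difference was 2.23 ± 0.43 (adjusted p = 0.0442), and 1.4998 (adjusted p = 0.127) without that mouse. It was called in 1 of the 8 sets with a library left out. An annotated transcript on the same strand overlaps this gene.

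The straight tubule gave 1 call of 51 tested, at ZT16 between genotypes (0.612% of all genes called), in the antiporter gene Slc47a2. Its level was 37.3 and 26.3, then 41.6 and 53.1, then 13.2 and 24.0, then 15.2 and 14.7 CPM. The difference was -1.65 ± 0.30 at ZT16 (adjusted p = 0.0438) and -0.74 ± 0.30 at ZT4 (adjusted p = 0.606), and the highest cKOt mouse stayed below the lowest Ctrl mouse. With a library left out the difference at ZT16 was -1.46 to -1.82. It was called in 2 of 8 cases, one of them without the cKOt ZT4 mouse 2. With Atp11a-high nuclei counted as PST it was -0.81 (adjusted p = 0.246). No transporter was called in the single comparisons of PST nuclei with a replicate block over both times in the fit. Values with a block within each time are not given. The other 3 comparisons gave 0 calls by edgeR: time in Ctrl (0.0332% of all genes), time in cKOt (0%) and genotype at ZT4 (0.444%). Unadjusted p under 0.05 was reached by 3 of 51, 2 of 49 and 8 of 51, or by 6.79, 4.72 and 7.38% of all genes, so near the background for time. DESeq2 called 0, 0 and 2, and 0.216, 0.0167 and 0.887% of all genes.

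Averaged over both times, a comparison added after seeing the data, 4 of 51 transporters tested, with counts in both genotypes, were lower in PST nuclei of cKOt mice and 0 higher. Of all genes 1.61% were called, 128 lower and 72 higher. Slc22a3 was called too, but it passed the filter on low counts through the Ctrl mice alone and could only be called lower. These calls changed with the libraries in the fit: with 1 library left out they were lost in 3 of 8 cases for Slc22a5, 5 for Slc47a2 (adjusted p up to 0.105), 4 for Abcc9 (up to 0.123) and 6 for Slco2b1 (up to 0.115), the set without the Ctrl ZT16 mouse 1 losing all of them. Leaving out the cKOt ZT4 mouse 2 leaves 1 mouse in that group, so effect sizes alone are given. The difference was then 1.38 for Slc22a27 (1.22 and adjusted p = 0.0761 with all libraries). It was -0.91 for Slc22a4, -0.87 for Abcc1 and -2.84 for Abcb1a. Abcb1a had 918 UMIs in all nuclei together, and nothing is read from its difference. For these genes the difference without the cKOt ZT4 mouse 1 is not given. With Atp11a-high nuclei counted as PST, Slc22a5 and Slco2b1 kept their calls, Slc22a27 was called higher (1.27, adjusted p = 0.0364), and Slc47a2 (-0.56) and Abcc9 (-0.73) lost theirs (adjusted p = 0.157 and 0.0689). Ctrl and cKOt nuclei of this class lay mostly in different clusters, whose part in these differences was not tested. Besides Slc22a5 these were Slc47a2 (-1.20 ± 0.21, adjusted p = 0.0203), Abcc9 and Slco2b1. Abcc9, the potassium channel subunit, had 93.9 and 87.2, then 54.7 and 41.6, then 22.8 and 42.1, then 18.6 and 31.8 CPM, a difference of -1.22 ± 0.22 (adjusted p = 0.0254). The cKOt ZT4 mouse 2 reached the lower Ctrl ZT16 mouse, and without it the difference was -1.48. In smooth muscle and juxtaglomerular nuclei, its main class, the level was 530 to 754 CPM in all libraries and differed by -0.31 ± 0.25 at ZT4 (adjusted p = 0.868). Slco2b1 had 25.5 and 21.2, then 16.2 and 19.6, then 6.75 and 4.53, then 5.55 and 14.3 CPM (-1.49 ± 0.29, adjusted p = 0.034). The markers of mesangial cells and pericytes summed to 78.2 to 141 CPM in PST nuclei of Ctrl and 56.0 to 91.5 CPM in those of cKOt mice, and the myeloid ones to 166 to 256 and 111 to 169 CPM, with overlap in both. Their part was not tested. Slc22a3, the OCT3 gene, was at 2.36 to 3.33 CPM in Ctrl and 0 to 0.397 CPM in cKOt mice, with at most 1 UMI in each cKOt library, and nothing is read from its call.

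In Slc5a2-high PCT nuclei the urate transporter gene Slc22a12 had 89.8 and 66.6, then 210 and 233, then 121 and 128, then 231 and 178 CPM, so every ZT16 mouse exceeded every ZT4 mouse. In Ctrl mice the rise was 1.502 ± 0.19 (adjusted p = 0.0102, 1 of 46 transporters tested, where 0.694% of all genes were called), and in cKOt mice it was 0.72 ± 0.19 (adjusted p = 0.29). The interaction of -0.79 ± 0.27 did not pass (adjusted p = 1). With 1 library left out the rise in Ctrl mice was 1.31 to 1.74 and was lost in 2 of 8 cases (adjusted p up to 0.0964), one of them without the Ctrl ZT16 mouse 2 (adjusted p = 0.0876). Slc5a2-high nuclei of the Ctrl mice at ZT4 and ZT16 lay mostly in different clusters, whose part in this difference was not tested. In Atp11a-high nuclei it had 286 and 189, then 419 and 432, then 398 and 301, then 522 and 402 CPM, with a rise of 0.84 ± 0.24 in Ctrl mice (adjusted p = 0.295). Slc22a12 overlaps Nrxn2, which lies on the opposite strand. Slc47a2 also rose at ZT16 in Slc5a2-high nuclei, from 3.38 and 1.91 to 10.1 and 9.48 CPM in Ctrl and from 2.64 and 1.40 to 8.61 and 6.81 CPM in cKOt mice, and averaged over both genotypes the difference was 1.94 ± 0.28 (adjusted p = 0.0114, where 1.39% of all genes were called). In PST nuclei, where its level is higher, the averaged time difference was 0.13 ± 0.21 (adjusted p = 0.92), and 0 of 51 transporters passed that comparison by edgeR or DESeq2 (0.0969% of all genes called, 0.468% by DESeq2; 5 transporters and 8.55% of all genes at an unadjusted p under 0.05 by edgeR).

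Several PST carriers differed widely between mice of the same group, and none of these was called by edgeR in the model of 4 groups. Their values with a block within each time are not given. Slc22a19 had 507 and 256, then 139 and 786, then 849 and 143, then 638 and 754 CPM. Slc22a26 ranged from 2.40 to 94.0 CPM, with 5.34 and 94.0 in the pair of Ctrl mice at ZT16. Slc22a7 had 221 and 108, then 143 and 229, then 297 and 140, then 279 and 281 CPM. Slc22a13 had 57.6 and 139, then 96.3 and 43.7, then 30.2 and 84.0, then 36.3 and 32.2 CPM. In each group the mouse with more Slc22a19 and Slc22a7 had less Slc22a13, by little in the cKOt mice at ZT16. In both genotypes Slc22a19 and Slc22a7 were higher in mouse 1 at ZT4 and in mouse 2 at ZT16. The spread of these genes thus followed the replicate number within a time, and its cause was not tested. Slc22a8 in PCT nuclei also differed within groups, with 165 and 176, then 314 and 144, then 57.3 and 158, then 109 and 97.9 CPM. The averaged genotype difference was -0.90 (adjusted p = 0.309), and -1.37 without the cKOt ZT4 mouse 2, which leaves 1 mouse in that group. In Atp11a-high nuclei it was -1.69 (adjusted p = 0.109) and without that mouse -2.45. The difference at ZT16 there was -2.57 in both cases, with adjusted p = 0.192 with all libraries. Differences of Slc22a8 without the cKOt ZT4 mouse 1 are not given.

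**Figure D5:**
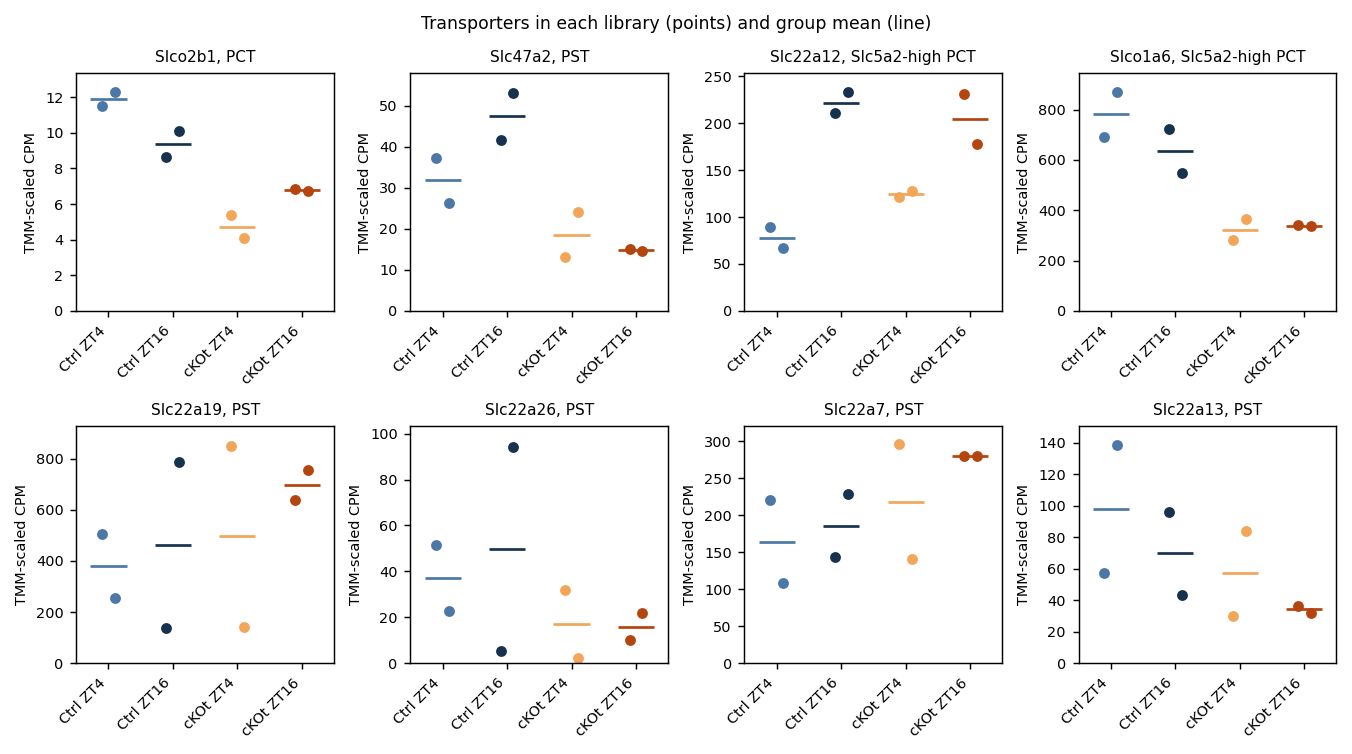
TMM-scaled CPM of 8 gene and class pairs in each mouse (points) with the group mean (line), on linear axes from 0. The upper row shows pairs in which groups differ (Slco2b1 in PCT, Slc47a2 in PST, Slc22a12 and Slco1a6 in Slc5a2-high PCT nuclei), and the lower row PST carriers whose mice of one group lie far apart, such as Slc22a19 at 139 and 786 CPM in the Ctrl mice at ZT16.

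Outside the proximal tubule 17 classes had enough nuclei to test. Of 2195 combinations of transporter, class and comparison 4 were called, where 0.224% of all combinations of gene, class and comparison were. At an unadjusted p under 0.05 there were 243 (11.1%, where 6.5% of all combinations were). Of these, 3 were the falls of Slc22a5 and Slc22a21 in TAL nuclei described above. The last was Slc22a8 in type A intercalated cells, with 31.0 and 26.9, then 37.7 and 23.6, then 13.8 and 23.3, then 2.26 and 1.80 CPM and a call for genotype at ZT16. At that time it passed the filter on low counts through the Ctrl mice alone, with 1 UMI in each cKOt mouse, so that it could only be called lower. DESeq2 gave it an adjusted p of 0.533, and nothing is read from this call. Genes with their main level in a distal or stromal class did not pass there: Abcc3 in urothelium had 224 to 342 CPM, Slco4a1 in the medullary collecting duct 329 to 589 CPM, Slco1a4 in the vascular class 27.8 to 101 CPM, and Abcc4 in the medullary collecting duct 645 to 1825 CPM over the 8 libraries.

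No interaction of genotype and time passed for a transporter in all nuclei, PCT or PST (0 of 56, 52 and 51 by edgeR and by DESeq2; 0.0184%, 0.028% and 0% of all genes called by edgeR, 0.294%, 0.245% and 0.0242% by DESeq2). Unadjusted p under 0.05 was reached by 5, 3 and 2, or by 4.35, 4.28 and 3.12% of all genes. Partner genes gave 0 calls in the 4 comparisons of these nuclei: of 24 solute carriers and scaffold genes that work beside the transporters (the dicarboxylate, peptide, urate and bile acid carriers among them), 19 to 23 could be tested. Averaged over both times, Slc51a, a subunit of the basolateral bile acid and steroid carrier OSTα-OSTβ, was lower in PCT nuclei of cKOt mice (-1.34 ± 0.27, adjusted p = 0.0494), a call lost in 6 of the 8 sets with a library left out (adjusted p up to 0.2002). Averaged over both genotypes, the urate carrier gene Slc2a9 was lower at ZT16 in PCT nuclei (-1.03 ± 0.15, adjusted p = 0.025) and in all nuclei (-0.75 ± 0.13, adjusted p = 0.0496), calls lost in 5 and 8 of the 8 sets (adjusted p up to 0.117 and 0.199). In Slc5a2-high nuclei Slc10a2, the apical bile acid carrier gene, was higher in cKOt mice at ZT4 (2.10 ± 0.31, adjusted p = 0.0143) and at ZT16 in Ctrl mice (1.93 ± 0.32, adjusted p = 0.0308). These 3 genes were named after their values were seen. Of 17 listed regulators, Dbp and Tef were called in the 4 comparisons of all nuclei, PCT and PST.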

How the data were processed

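Single-nucleus 3′ libraries of 8 mouse kidneys were analysed from the deposited tables of UMI counts per gene and barcode, which the authors made with Cell Ranger 7.1.0 after bcl2fastq 2.20, one table per library, with called barcodes only. The paper's methods name an mm10 reference and the labels GRCm39, so no gene coordinates were read from the files. The sources used here do not say if intronic reads entered the counts. Columns of nucleus barcodes and gene names are deposited labels (other), not measurements.

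The filter on nuclei asked for 500 or more genes, 800 or more UMIs and no more than 2% of UMIs from mitochondrial genes. Clusters were made with Seurat 5.3.0 in R 4.3.3 from protein-coding genes without the transporters, and named where the mean z of the best marker list reached 0.9 with at least 3 markers 2-fold above other nuclei. Lists of the thick and thin ascending limb were joined, and proximal clusters divided by Cyp7b1, both after the clusters were seen, so 5 clusters whose best list was PST were put in PCT. Doublets were marked with Scrublet in scanpy 1.11.5 at an expected rate of 8% and kept. Clusters with at least 50% doublets or under 20 nuclei were not named, so their nuclei entered the sums of all nuclei only. Counts were summed per library and class and tested with edgeR 4.0.16 (TMM, quasi-likelihood F-test, 1 model of 4 groups, at least 5 counts in both replicates of a compared group, Benjamini-Hochberg adjustment over all protein-coding genes of a contrast, limit 0.05). DESeq2 1.42.0, other scalings, filters, fits, a replicate block, 50 principal components, doublet removal and leaving out each library were alternatives; averaged comparisons, Slc5a2-high and Atp11a-high nuclei, counting the latter as PST and a block within each time were chosen after seeing the data. The scripts were tested on simulated data. The labels do not say that samples of a group came from more than 1 experiment, so p-values measure the spread between these mice only.

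Genes named were transporters called in all nuclei, PCT or PST, the 2 with the most UMIs in each role, 3 concentrated in 1 class outside the proximal tubule, called genes of the partner and regulator lists, those next to the limit of 100 UMIs, and Arntl; the others were chosen after their values were seen. The transporters and lists were chosen with earlier results of these data known. Counting error is part of every level and is larger in small classes: a library held 12021700 to 17525452 UMIs of protein-coding genes in PCT, but 33749 to 120756 in macula densa nuclei. Results of a few genes are not reported here, nor drawn in the figures.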

Additional observations from a re-analysis of the deposited data

Results flagged for a closer look

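Arntl in PCT nuclei was singled out because the effect of genotype differed between the times: the interaction was -3.68 on the log2 scale (adjusted p = 0.0155, edgeR, 2 mice per group). Its level was 11.9 and 14.8 CPM in the Ctrl mice at ZT4, 192 and 208 at ZT16, and 211 to 324 CPM in the 4 cKOt mice. The call was lost in 5 of the 8 sets with 1 library left out, where the interaction lay between -3.95 and -3.34 and the adjusted p between 0.00158 and 0.135. No transporter was singled out in this way.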

How the results depend on the processing

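With 2 mice per group, the numbers of calls were small and moved with most choices, and the cause was not tested. A transporter counts here once for each comparison and set of nuclei in which it was called. The 2 calls for time averaged, for example, were both of Slc22a5. DESeq2 called 12 in place of 0 in all nuclei, 8 in place of 2 in PCT, 6 in place of 1 in PST, 16 in place of 3 between genotypes at a single time, and 14 in each averaged comparison, in place of 8 for genotype and 2 for time. Without a filter on low counts there were 5 in PCT, 20 in PST and 38 in the other classes (4 with it), where genes with few UMIs enter; with at least 20 counts there were 0 in PST. With only the compared groups in the fit there were 1 in PCT, 3 in PST and 10 in the other classes. Clusters from 50 principal components gave 0 in PCT, and Slc5a2-high nuclei alone gave 4; the former was not run for the averaged comparisons. Counting Atp11a-high nuclei as PST, chosen after seeing the data, gave 2 in PST, both of Slc22a5, and 5 for genotype averaged. In all nuclei DESeq2 called 1.03 to 2.17% of all genes in the 4 comparisons, where edgeR called 0 to 0.446%. For the other choices in this section the share of all genes called is not given. Their counts are therefore not read as results about the transporters.

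The labels tie the replicate numbers to nothing shared. Deviations of same-numbered mice correlated at 0.323 to 0.522 between genotypes of the same time and at -0.376 to 0.307 between times, in all nuclei, PCT and PST, so the numbers did not pair the samples across all groups. Within a time all correlations were above 0, but a pairing there was not tested. A replicate block over both times gave 0 in PCT, 0 in PST and 0 between genotypes. A block within each time, chosen after seeing the data, gave 16 in place of 3 between genotypes. Its calls are not listed by gene.

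Leaving out 1 library gave 0 to 1 in all nuclei, 0 to 2 in PCT, 0 to 5 in PST, 2 to 10 in the other classes, 0 to 7 between genotypes at a single time, 2 to 15 for genotype averaged, 0 to 7 for time averaged and 25 to 26 transporters highest in PCT or PST (26 with all). Without the cKOt ZT4 mouse 2 there was 1 in all nuclei, 1 in PCT, 5 in PST, 9 in the other classes, 7 between genotypes at a single time and 15 for genotype averaged; without the cKOt ZT4 mouse 1, 3 in PST, 10 in the other classes, 5 between genotypes and 7 for time averaged. Without any 1 Ctrl mouse there were 0 in PCT, PST and between genotypes at a single time; without either cKOt ZT16 mouse 0 in PCT and 1 between genotypes. Of 629 alternative values of 37 named results none turned its direction, 451 stayed on the same side of the limit and 178 lost the call. These results include those of Arntl, Dbp and Tef, so the total is not that of the transporters alone. The interaction gave 0 under each alternative run.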
